A study of Mus musculus with 12 samples.

Results

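Potassium channel genes other than the inward rectifiers were followed in RNA from whole mouse spinal cord. The genes were chosen by symbol, taking every Kcn gene outside the Kcnj family with a mean expected count of at least 10 over 12 libraries. Of 38924 genes in the files, 79 fitted the pattern and 69 met the count, with 68 distinct symbols because Kcnb2 stood under 2 Ensembl identifiers. All 69 passed the filter on low counts and were among the 17765 genes tested. The members just inside the limit were Kcnq1, with a mean count of 18.17, and Kcnn4, with 18.5. Just outside it were Kcnv2 with 7.83 and Kcnk7 with 7.08. Of the 10 genes left out, Kcnmb3 was listed at 0 in all 12 libraries.

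The study measured mRNA in spinal cords of mice aged 8 weeks on the B6J.Cg background that carried C201R, a change in the glycyl-tRNA synthetase gene Gars, or were WT. The genotype tag reads C201R+/- for libraries titled C201R and C201R+/+ for those titled WT. By title there were 4 groups of 3 libraries: C201R female, C201R male, WT female and WT male. The genotype in the library name disagreed with the title in 4 of the 12 libraries. Libraries 4 and 9 are C201R by name and WT by title, and libraries 11 and 12 are WT by name and C201R by title. Each label gives 6 C201R and 6 WT libraries, and 8 libraries carry the same genotype under both. Both groupings are given side by side, and which label is right cannot be told apart from the sources used here. Nothing in the labels ties each library to its own animal. The p-values therefore describe only how these libraries vary, which may be technical in part.

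Library totals ran between 27175421 expected counts in library 8 and 38271405 in library 9. Xist, expressed from the inactive X chromosome of females, was above 100 CPM in 6 libraries, and its level went against the titled sex in 6 of the 12. It was above that level in 3 C201R and 3 WT libraries by name, and in 5 C201R and 1 WT libraries by title. Skeletal muscle markers were above 0.15% of all TPM in libraries 1, 3, 6 and 8. Markers of neurons, astrocytes and oligodendrocytes were present in every library. Their sums were at least 4558, 7386 and 26559 CPM in C201R libraries by name, against 4659, 7411 and 29559 CPM in WT libraries. The medians were 4653, 7569.8 and 28436 CPM against 4866, 7668 and 30625 CPM. By name 8 of 8 neuron, 6 of 8 astrocyte and 7 of 8 oligodendrocyte markers were lower in C201R, with median log2 differences of -0.04, -0.02 and -0.07. Only Slc1a3, an astrocyte marker, passed the test used below, and it was higher. By title 5 neuron, 3 astrocyte and 5 oligodendrocyte markers were lower. Other tissue varied too. By name 8 of 8 pericyte and smooth muscle, 6 of 6 red cell and 5 of 5 fat markers tested were higher in C201R, and none passed. The fat sum was 229 CPM in library 3 and at most 18.6 CPM elsewhere. Sums of Schwann cell and dorsal root ganglion markers ran between 434 and 2002 CPM, with 5 of 8 markers higher by name and 8 of 8 by title. CPM here are counts scaled to a common library size by the trimmed mean of M values (TMM). They are not corrected for length, so levels of different genes are compared in TPM, which is.

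Potassium channels let potassium leave the cell and so set the resting potential and end each action potential. Voltage-gated Kv channels open on depolarisation. Shaker channels gather beside the nodes of Ranvier, Shaw channels allow fast repeated firing, and the M-current of the KCNQ channels restrains repetitive firing. K2P channels carry the leak current at rest, calcium- and sodium-activated channels follow activity, and accessory subunits change how the pore subunits open or reach the membrane. Silent Kv subunits make no channel alone and act by joining Kv2 subunits. Motor neurons, interneurons, axons and glia of the cord use different mixtures of these genes.

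Shaw and Shaker genes, taken with the beta subunits of Shaker channels, made up most of the summed TPM. The 69 genes summed to 2198 ± 97.9 TPM (SD, n = 12), between 2066.4 TPM in library 5 and 2325.0 TPM in library 9. The Shaw genes took 23.3% of this sum, the beta subunits of Shaker channels 21.1% and the Shaker genes themselves 14.0%. K2P genes took 8.51%, calcium- and sodium-activated genes 7.96%, the KChIP subunits 6.3% and the KCNQ genes 5.93%. The EAG, ERG and ELK genes held 4.57%, silent subunits 3.58%, A-type Kv4 genes 2.33% and Kv2 genes 1.13%. The beta subunits of the BK channel, with 0.704%, and the KCNE subunits, with 0.616%, were the smallest classes. Of the members, 6 stood at 100 TPM or above, 27 lay between 10 and 100 TPM, 28 between 1 and 10 TPM and 8 under 1 TPM. The last were, chosen after their values were seen, Kcna7, Kcnv1, Kcnmb1, Kcnn4, Kcnh3, Kcng3, Kcnq1 and Kcnh4, with means between 0.803 TPM for Kcna7 and 0.339 TPM for Kcnh4.

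**Figure D1:**
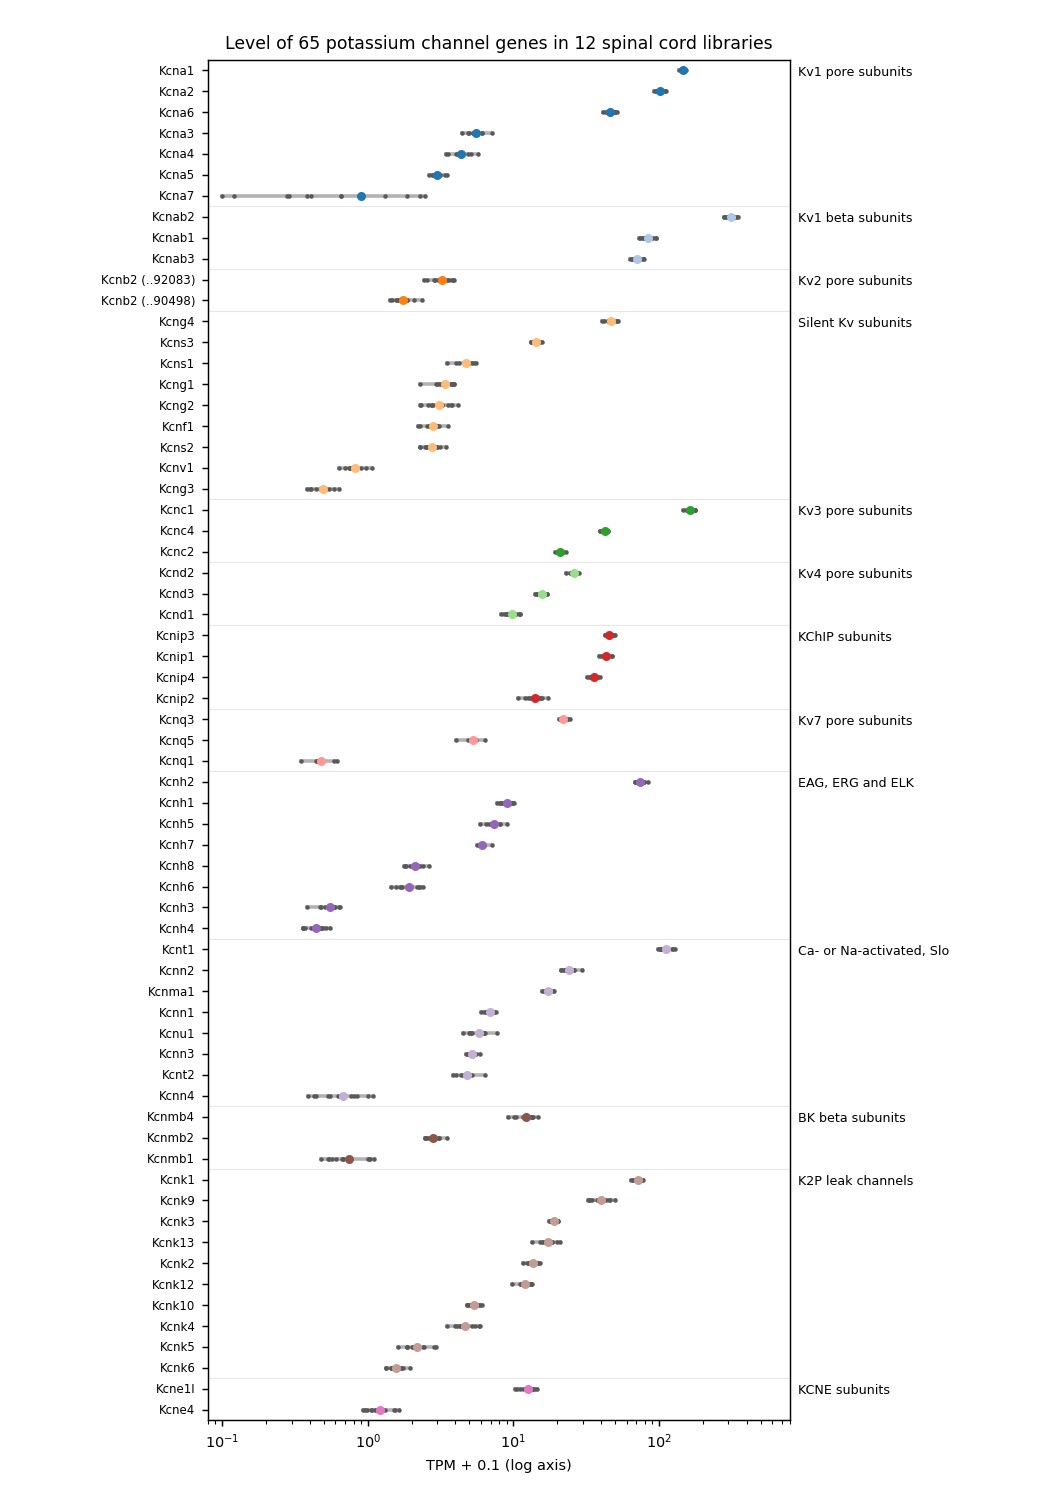
Level of 65 of the genes, in TPM + 0.1 on a log axis, with a point for each of 12 libraries and the genes grouped by role. Kcnab2 (mean 311 TPM) and Kcnc1 (mean 164 TPM) stand at the high end, and 8 genes average under 1 TPM.

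The order was headed by an accessory gene. Kcnab2, a beta subunit of Shaker channels, averaged 311 ± 25.3 TPM (SD, n = 12), with a range of 279 to 349 TPM. Kcnc1, which encodes a Shaw pore subunit, averaged 164 ± 9.72 TPM, and its range of 147 to 178 TPM lay wholly under that of Kcnab2. Kcna1, whose product sits beside the nodes of myelinated axons, averaged 146 ± 4.59 TPM (137 to 153 TPM). It overlapped Kcnc1 in range. Kcnt1, a sodium-activated channel, averaged 111 ± 9.88 TPM and Kcna2, the usual partner of Kcna1, 101 ± 6.24 TPM, with overlapping ranges. These are not all of the highest members, since some genes are not reported here. Counting every member, the 5 of highest mean TPM held 46.2% of the summed TPM, the first 10 held 65.6% and the first 20 held 84.7%.

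Levels also differed within classes. Kcnq3, a subunit of the M-current channel, lay between 20.4 and 24.6 TPM. Kcnh2, the ERG channel of the heart, averaged 73.6 ± 4.93 TPM, and the next of its class was Kcnh1 with 8.9 ± 0.818 TPM. The remaining beta subunits were Kcnab1 with 83.4 ± 7.63 TPM and Kcnab3 with 70.4 ± 5.12 TPM. Of the K2P genes, Kcnk1 stood at 72.2 ± 4.2 TPM and Kcnk9, an acid-sensitive leak channel, at 39.7 ± 5.8 TPM. Kcng4 averaged 47.0 ± 3.61 TPM among silent subunits, ahead of Kcns3 with 14.3 ± 0.727 TPM. For the A-type current, Kcnd2 averaged 25.9 ± 1.47 TPM and Kcnd3 15.6 ± 0.966 TPM, and their KChIP partners Kcnip3 and Kcnip1 averaged 45.6 ± 2.39 and 43.2 ± 2.96 TPM. Kcnn2, a small-conductance calcium-activated channel, averaged 23.9 ± 2.4 TPM, Kcnmb4, the neuronal BK beta subunit, 12.1 ± 1.64 TPM, and Kcne1l 12.4 ± 1.39 TPM.

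Several of these genes lie side by side. On chromosome 6 of GRCm38 the Shaker genes Kcna5 (126532551 to 126535412), Kcna1 (126640397 to 126646384) and Kcna6 (126708329 to 126740674) run on the minus strand, with mean levels of 2.9, 146 and 46.2 TPM. On chromosome 3 Kcna3 (107036169 to 107038070) and Kcna2 (107101146 to 107115005) run on the plus strand, with 5.45 and 101 TPM. The authors' model of Kcna1 is a single transcript of 8970 bases, longer than the span given for it here. The TPM rest on the authors' models, which can thus differ from those used here for positions and overlaps. Of the members, 22 have an exon that overlaps another gene of the GENCODE M21 annotation, 2 of them on the same strand. Whether the authors' counting used strand is not given in the sources used here, so the values of the 22 genes are uncertain. The same-strand overlaps are of Kcnab2, the highest member, with Gm16334 and of Kcnk4 with Catsperz, and strand would not separate their reads. Kcnab1, Kcnk1 and Kcnmb4 overlap a gene on the opposite strand, and Kcnk9, Kcng4, Kcng1 and Kcns1 have no such exon. Reads of Kcnb2 may be split between its identifiers.

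Variation from library to library differed between members, and it was not compared with that of all genes. The coefficient of variation of CPM over the 12 libraries had a median of 8.45% over all members. For members at 10 TPM or more it had a median of 5.53%, with Kcna1 at 3.14% and Kcnk9 at 15.4% as its ends. Both genotypes are pooled in it, so the group difference of Kcnk9 by library name, given below, is part of its value. Kcna7, a Shaker gene of skeletal muscle and heart chosen here after its values were seen, had the widest spread, 108%.

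By the genotype in the library name, 2 of the 69 genes passed the test, and both were lower in C201R libraries. They were Kcnk9, the leak channel, and Kcng4, the silent subunit. No member was higher. Over all genes tested, 0.715% passed in either direction, 0.546% lower and 0.169% higher, and 2 of 69 is 2.9%. The call rests on edgeR's quasi-likelihood test at an adjusted p of 0.05, with a term for titled sex and Benjamini-Hochberg adjustment over every gene tested. In whole tissue, fewer cells of a type and less RNA per cell cannot be told apart.

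Kcnk9 (chromosome 15, 72501089 to 72546340, minus strand) encodes an acid-sensitive K2P leak channel. It was at 19.2, 18.9, 21, 18.6, 20.7 and 17.5 CPM in C201R libraries 1, 2, 3, 4, 9 and 10, against 24.7, 26.2, 28.3, 24.1, 23.5 and 24.9 CPM in WT libraries 5, 6, 7, 8, 11 and 12. Every C201R library by name was under every WT library. Its mean was 19.3 ± 1.34 CPM over the C201R libraries, against 25.3 ± 1.71 CPM over the WT libraries (SD, n = 6 each). The log2 difference was -0.41 ± 0.06 (SE), with an edgeR adjusted p of 0.00431. Without libraries 1, 3, 6 and 8, which hold the most muscle transcripts, the difference was -0.48 with an edgeR adjusted p of 0.0825. The authors' model of Kcnk9 is a single transcript of 1209 bases.

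Kcng4 (chromosome 8, 119623854 to 119635680, minus strand) encodes a silent subunit that joins Kv2 channels. It was at 91.5, 80.6, 80.8, 84.6, 85.7 and 82.6 CPM in C201R libraries 1, 2, 3, 4, 9 and 10, against 97.0, 101, 94.2, 93.9, 94.2 and 98.3 CPM in WT libraries 5, 6, 7, 8, 11 and 12. The groups did not overlap, although C201R library 1 came close to the lowest WT library. Its mean was 84.3 ± 4.06 CPM over the C201R libraries, against 96.5 ± 3.0 CPM over the WT libraries. The log2 difference was -0.17 ± 0.03 (SE), with an edgeR adjusted p of 0.0193. The call was lost without library 4 (-0.15, edgeR adjusted p 0.11), without library 7 (-0.16, 0.0912), without library 8 (-0.16, 0.094) and without the 4 muscle-rich libraries (-0.19, 0.156). It was lost too with limma on log2(TPM + 1), with a difference of -0.13 and an adjusted p of 0.274.

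Motor neuron marker sums also separated the groups by library name. Within the groups the order was shared in part. C201R library 3 had the lowest sum, 313 CPM, and the highest Kcnk9, 21 CPM. C201R library 2 had the highest sum, 372 CPM, and the lowest Kcng4, 80.6 CPM. WT libraries 8 and 11 had the lowest WT sums, 464 and 466 CPM, and the lowest WT Kcnk9, 24.1 and 23.5 CPM. WT library 6 had the highest sum, 627 CPM, and the highest Kcng4, 101 CPM, while Kcnk9 was highest in WT library 7 (28.3 CPM, sum 506 CPM). The summed level of 9 markers found of 10 listed was between 313 and 372 CPM in C201R libraries by name, with a median of 335 CPM. In WT libraries it was between 464 and 627 CPM with a median of 510.2 CPM, so the groups did not overlap. Of the 9 markers, 7 were lower and 2 higher in C201R, 3 of them passed the test and were lower (Ahnak2, Chat and Chodl), and none was at 0 in all libraries. The part of these cells in the Kcnk9 and Kcng4 differences was not tested.

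**Figure D2:**
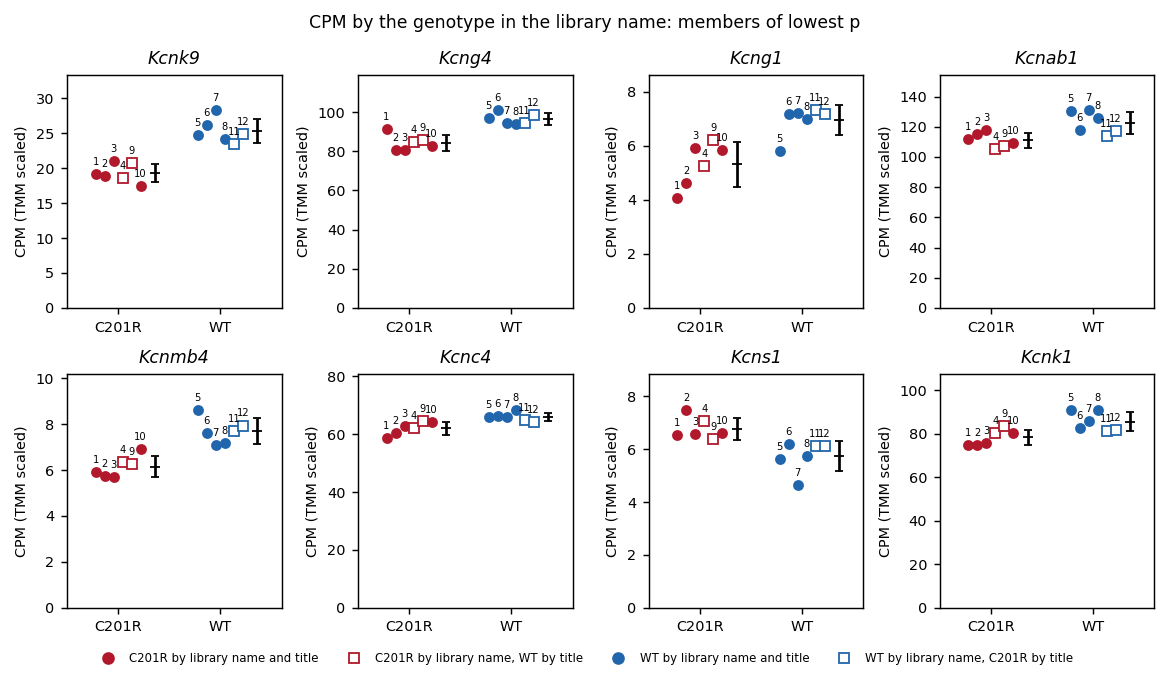
CPM of the 8 members of lowest p by the genotype in the library name, C201R left of WT, with a point per library, the mean and its SD as a bar, and open squares for the 4 libraries whose title gives the other genotype. Kcnk9, Kcng4 and Kcnmb4 are lower in all C201R libraries and Kcns1 is higher in all of them.

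Groups without overlap were found for 4 members (5.8%), against 1.64% of all genes tested. Lower in C201R were 3 of them and higher 1, against 1.05% and 0.585% of all genes. Besides Kcnk9 and Kcng4 they were Kcnmb4 and Kcns1, which did not pass the test. Kcnmb4, the neuronal beta subunit of BK channels, was at 5.70 CPM at the lowest, 6.09 at the median and 6.92 at the highest in C201R libraries, against 7.09, 7.66 and 8.62 CPM in WT libraries. Its log2 difference was -0.30 ± 0.07 (SE), with an edgeR adjusted p of 0.0939. Exons of this gene overlap Kcnmb4os1 and Kcnmb4os2 on the opposite strand. Kcns1, a silent subunit studied for its part in pain, was at 6.38, 6.58 and 7.49 CPM at the lowest, median and highest in C201R libraries, against 4.65, 5.94 and 6.19 CPM in WT libraries. It was the only member higher in every C201R library than in any WT library. Its log2 difference was 0.28 ± 0.08 (SE), with an edgeR adjusted p of 0.153.

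The promoters of Kcng4 and Kcns1 are shown because these 2 silent subunit genes stood apart between the groups in opposite directions. Each line holds the 250 bases before the gene's start, from RefSeq on GRCm38.p6, written 5′ to 3′ along the gene. They come from chr8:119635681-119635930 for Kcng4 and chr2:164171114-164171363 for Kcns1, both on the minus strand. Capitals mark a CCAAT match in Kcng4 and, in Kcns1, a match to GGGCGG on the opposite strand.
Kcng4: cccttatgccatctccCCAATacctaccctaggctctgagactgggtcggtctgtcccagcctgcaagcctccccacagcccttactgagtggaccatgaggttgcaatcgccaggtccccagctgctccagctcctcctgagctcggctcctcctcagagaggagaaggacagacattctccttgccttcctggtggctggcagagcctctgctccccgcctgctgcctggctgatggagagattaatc
Kcns1: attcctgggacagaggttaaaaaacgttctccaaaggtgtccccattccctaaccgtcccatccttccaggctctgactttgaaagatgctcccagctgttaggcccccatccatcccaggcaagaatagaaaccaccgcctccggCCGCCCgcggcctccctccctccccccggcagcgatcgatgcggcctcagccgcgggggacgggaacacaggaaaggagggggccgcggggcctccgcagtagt
The CCAAT match begins 234 bases before the start of Kcng4, and 33.8% of 32851 promoters hold that motif on either strand. The GGGCGG match begins 104 bases before the start of Kcns1, and 32.7% of promoters hold it. Kcng4 has 60.4% G and C with 4 CpG, and Kcns1 has 63.2% with 17 CpG, against medians of 52.4% and 6 over all promoters. Neither window held TATAAA (12.4% of promoters), TGACGTCA (1.55%), CACGTG (6.02%), TGATGNAA (3.45%) or TAATTA (4.84%) on either strand. These matches describe letters in a window and were not tied to the levels.

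Further members of low p did not pass the test either. Kcng1, a silent subunit, averaged 5.32 ± 0.832 CPM in C201R libraries and 6.95 ± 0.564 CPM in WT libraries (log2 difference -0.45 ± 0.10, edgeR adjusted p 0.0829). Its difference was -0.15 with limma on log2(TPM + 1) (adjusted p 0.677) and -0.20 on log2(TPM + 0.1) (adjusted p 0.678). Kcnab1, the Shaker beta subunit that speeds inactivation, averaged 111 ± 4.88 CPM in C201R and 123 ± 7.41 CPM in WT (-0.17 ± 0.04, edgeR adjusted p 0.0892). The lowest WT library of Kcnab1 was at 114 CPM and the highest C201R library at 118 CPM. DESeq2 called Kcnab1, Kcnmb4 and Kcng1 lower as well, with adjusted p of 0.00812, 0.049 and 0.00995. Over all genes DESeq2 called 335, where edgeR called 127. The rest of the 15 members of lowest p had edgeR adjusted p between 0.109 (Kcnc4, -0.10 ± 0.03) and 0.410 (Kcne1l, 0.16 ± 0.08). Among them Kcnk1 differed by -0.14 ± 0.04, Kcna1 by -0.06 ± 0.03 and Kcnh1 by -0.12 ± 0.06, while Kcnab3 differed by 0.08 ± 0.04 and Kcnt1 by 0.07 ± 0.03.

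Read class by class, most differences were small. The 10 K2P genes had a median log2 difference of -0.12, with 8 lower and 2 higher, and 1 of them passed. The 9 silent subunits had a median of -0.035, with 5 lower and 4 higher, and 1 passed. In the 7 Shaker genes 6 were lower with a median of -0.026, and none passed. No gene passed among the 4 Shaw genes (median -0.024), the 5 KCNQ genes (-0.027), the 8 EAG, ERG and ELK genes (-0.011) or the 8 calcium- and sodium-activated genes (-0.016). The 3 Kv4 genes (-0.014), 3 Kv2 entries (-0.054), 3 Shaker beta subunits (-0.054), 3 BK beta subunits (-0.058), 4 KChIP genes (0.029) and 2 KCNE genes (0.037) held no called gene either. Over all members the median was -0.029, against 0.002 over all genes tested, and the median absolute difference was 0.067, against 0.064. The median over members was 0.009 with limma on log2(TPM + 1), against 0.031 over all genes. Its sign therefore depends on the scale, while it lay under the median of all genes on both. By sign alone 45 members (65.2%) were lower and 24 higher, against 49.1% of all genes lower and 50.9% higher. At an unadjusted p under 0.05 there were 12 members (17.4%), 10 lower and 2 higher, against 12.8% of all genes tested, 6.81% lower and 5.98% higher.

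**Figure D3:**
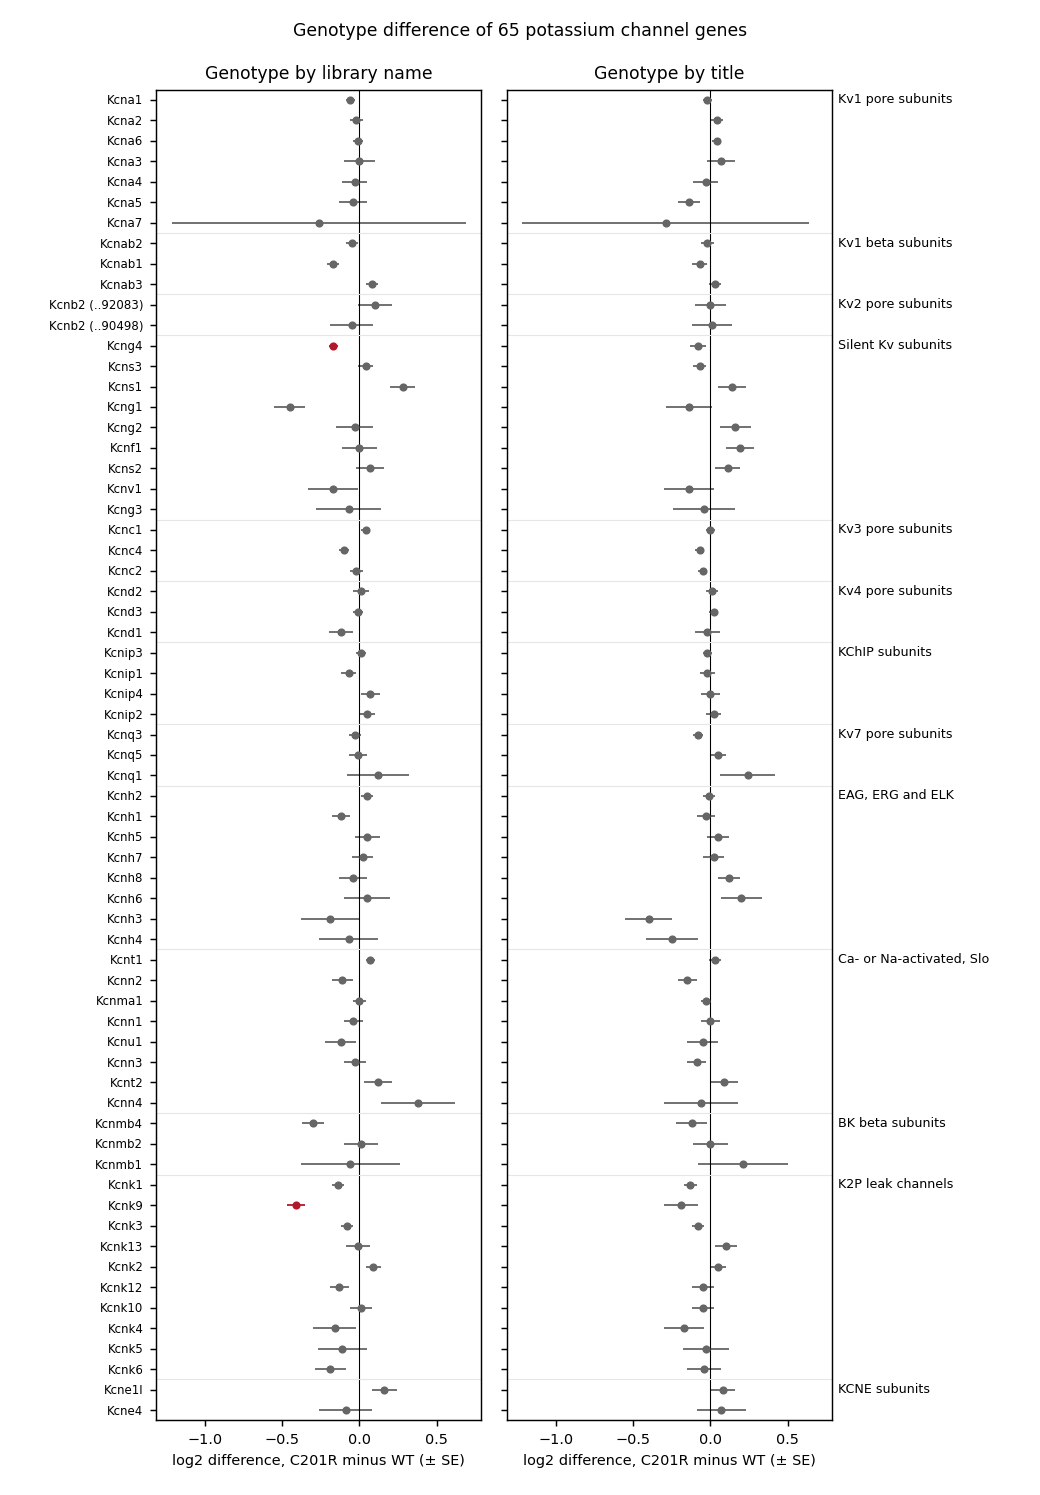
Fitted log2 difference of 65 of the members, C201R minus WT, with its SE, for the genotype by library name and by title, genes grouped by role. Kcnk9 (-0.41) and Kcng4 (-0.17) are the members called by library name, and by title their values are -0.19 and -0.08 with none called.

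By the genotype in the title, edgeR called 0 of the 69 members, DESeq2 0 and limma 0. Over all genes tested edgeR called 0.0% and DESeq2 18 genes. At an unadjusted p under 0.05 there were 6 members (8.7%), 5 lower and 1 higher, against 6.77% of all genes, 3.28% lower and 3.48% higher. No member separated the 2 titled genotypes without overlap, against 0.349% of all genes. Kcnk1, a weak leak channel, had the lowest p, with 78.1 ± 3.27 CPM in C201R libraries and 85.6 ± 4.37 CPM in WT libraries (-0.13 ± 0.04, edgeR adjusted p 0.640). Kcnh3, an ELK channel, was low in count and averaged 0.704 ± 0.129 CPM in C201R and 0.931 ± 0.0692 CPM in WT (-0.40 ± 0.15, edgeR adjusted p 0.673). Kcnn2 averaged 29.2 ± 1.97 CPM in C201R and 32.4 ± 2.82 CPM in WT (-0.15 ± 0.06, edgeR adjusted p 0.686). Kcnq3, Kcnk3, Kcnc4 and Kcna5 differed by -0.08, -0.08, -0.07 and -0.14, and Kcnf1, a silent subunit, by 0.19.

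The genes called by library name had overlapping groups by title. Kcnk9 ran between 17.5 and 24.9 CPM in the libraries titled C201R, against 18.6 to 28.3 CPM in those titled WT. Its means were 20.8 ± 2.89 CPM in C201R and 23.8 ± 3.55 CPM in WT (-0.19 ± 0.11, edgeR adjusted p 0.792). Kcng4 averaged 88.0 ± 7.65 CPM in C201R and 92.8 ± 6.52 CPM in WT (-0.08 ± 0.05, edgeR adjusted p 0.815). The 2 groupings share 8 of 12 libraries, so their values are not independent. Motor neuron marker sums overlapped by title, with 313 to 514 CPM in C201R libraries and 323 to 627 CPM in WT libraries. Over all members the median difference by title was -0.019, against 0.001 over all genes, with 41 lower and 28 higher, against 49.3% and 50.7% of all genes. In the test of whether the genotype difference depends on titled sex, edgeR called 0 members and 0.0% of all genes, with 7 members (10.1%) at an unadjusted p under 0.05 against 4.27% of all genes. Kcnk12, a K2P gene, had the lowest p there, with a difference of 0.34 ± 0.10 between the titled female and titled male effects (edgeR adjusted p 0.966). Titled sex is not sex by Xist here. Among libraries titled female, Xist was at 606, 522 and 531 CPM in C201R libraries 1, 11 and 12. In WT libraries 4, 5 and 6 it was at 0.22, 0.216 and 0.175 CPM. Genotype by title and Xist level therefore cannot be told apart among the libraries titled female.

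In the 8 libraries whose labels agree, 4 were C201R and 4 were WT, and edgeR called no member, against 0.163% of all genes tested. Xist was above 100 CPM in 3 of these C201R libraries and 1 of these WT libraries, and its part in the values was not tested. At an unadjusted p under 0.05 it found 12 members (17.4%), 11 lower and 1 higher, against 13.0% of all genes, 6.96% lower and 6.01% higher. DESeq2 called 3 members of 255 genes called in all, and voom 4 of 267, where edgeR called 29 genes. Motor neuron marker sums did not overlap here, with 313 to 372 CPM in C201R libraries and 464 to 627 CPM in WT libraries. Nor did oligodendrocyte marker sums, with 26559 to 29292 CPM in C201R and 29559 to 31721 CPM in WT. Taken singly, 5 of the 8 oligodendrocyte markers were lower and 3 higher, with a median log2 difference of -0.06, and none passed the test. The part of these cells in the differences was not tested. Kcnk9 averaged 19.1 ± 1.45 CPM in C201R and 25.8 ± 1.83 CPM in WT (-0.44 ± 0.07, edgeR adjusted p 0.0681). Kcng4 averaged 83.9 ± 5.15 CPM in C201R and 96.6 ± 3.48 CPM in WT (-0.17 ± 0.03, edgeR adjusted p 0.0907). Kcnk1 averaged 76.5 ± 2.72 CPM in C201R and 87.5 ± 4.04 CPM in WT (-0.20 ± 0.04, edgeR adjusted p 0.124). Kcnn2 averaged 28.4 ± 0.905 CPM in C201R and 32.0 ± 1.13 CPM in WT (-0.19 ± 0.04, edgeR adjusted p 0.118). The groups of 9 members did not overlap here (13.0%), against 8.53% of all genes. Of these, 8 were lower in C201R and 1, Kcns1, was higher, against 4.71% and 3.82% of all genes.

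Of the genes whose products bind or place these channels, Adam23 passed by library name and was lower. Adam23, a surface protein of the LGI complex, averaged 342 ± 9.63 CPM in C201R and 376 ± 6.18 CPM in WT (-0.15 ± 0.02, edgeR adjusted p 0.00948). The call was lost without library 4 (-0.13, edgeR adjusted p 0.062), without library 7 (-0.14, 0.0596) and without the 4 muscle-rich libraries (-0.18, 0.138). It was lost too with limma on log2(TPM + 1) and log2(TPM + 0.1), with a difference of -0.12 on both and adjusted p of 0.502 and 0.501. By title the Adam23 difference was -0.04 ± 0.04 (edgeR adjusted p 0.921). The other 19 partners tested did not pass, among them the juxtaparanodal genes Cntnap2 (0.02 ± 0.03) and Cntn2 (-0.02 ± 0.04) and the A-type partner Dpp6. The 4 HCN genes, which carry the opposing cation current at rest, did not pass. In the Kcnj family left out above, Kcnj14 averaged 13.2 ± 0.917 CPM in C201R and 21.9 ± 0.999 CPM in WT by library name (-0.70 ± 0.04, edgeR adjusted p 9.01e-06), and by title it differed by -0.33 ± 0.17 (edgeR adjusted p 0.766).

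Kcna7 varied between libraries within both genotypes. It stood at 4.2, 3.95, 3.15 and 2.13 CPM in libraries 3, 8, 6 and 1, and at 1.05 CPM or less in the other 8, with 0.0 CPM in library 11. The same 4 libraries had the highest sums of the 12 skeletal muscle markers, 3399, 2826, 1595 and 1763 CPM, against 73.5 to 815 CPM in the others, and no marker of the list was at 0 in all libraries. By library name Kcna7 averaged 1.36 ± 1.57 CPM in C201R and 1.49 ± 1.65 CPM in WT (-0.26 ± 0.95, edgeR adjusted p 0.943). By title it averaged 1.3 ± 1.62 CPM in C201R and 1.55 ± 1.59 CPM in WT (-0.29 ± 0.93, edgeR adjusted p 0.984). The part of muscle tissue in these levels was not tested.

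**Figure D4:**
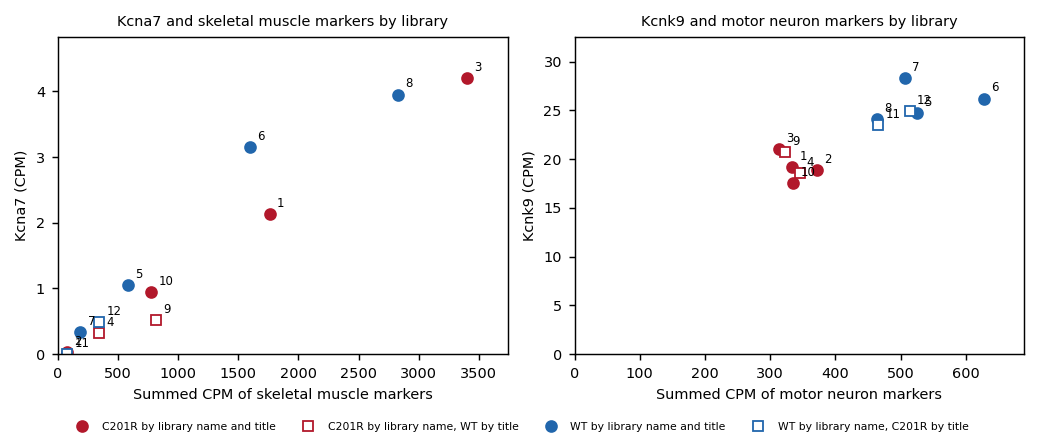
Kcna7 in CPM against the summed CPM of skeletal muscle markers, and Kcnk9 in CPM against the summed CPM of motor neuron markers, with a point per library coloured by the genotype in the library name. Kcna7 is highest in the 4 libraries with the highest muscle marker sums, and Kcnk9 stays at 21 CPM or less in the 6 C201R libraries by name, whose motor neuron marker sums are 372 CPM or less.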

How the data were processed

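Polyadenylated RNA of whole spinal cord was sequenced in 12 libraries, made with 2 KAPA kits per the labels' protocols. Bowtie2 2.2.0 and RSEM 1.2.12 were used, per the submitters' processing notes. The genome build is not given in the sources used here. An expected count and a TPM per gene are what the authors deposited, per the file headers. Expected counts were rounded, filtered with filterByExpr over the 4 titled groups and scaled by TMM. The main test was edgeR 4.0.16 (quasi-likelihood, R 4.3.3), with each SE taken as the log2 difference over the root of its F statistic. The deposited TPM, which RSEM divides by effective length, served for levels and for limma 3.58.1. DESeq2 1.42.0 was an alternative. Positions came from GENCODE M21.

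The members and lists were chosen with earlier results of these data known. Named genes were the called members, the 15 of lowest p by library name, the 10 by title, the most expressed of each class and of the whole set, and those beside the count limit. Some genes are not reported here. Total counts per library lay between 27175421 and 38271405, and other settings tried are given in the closing section.

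Python 3.11.15 with pandas 2.3.3 and matplotlib 3.10.9 joined the files and drew the plots.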

Additional observations from a re-analysis of the deposited data

Results flagged for a closer look

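In the 50 groups of 6 libraries examined for the 21 members named by the lowest p, 3 single libraries stood far from the rest of their group, and chance sets apart about 1 in 20 groups. Kcns1 was at 4.65 CPM in library 7, WT by library name, while the other 5 WT libraries lay between 5.64 and 6.19 CPM. Kcng1 was at 5.82 CPM in library 5, WT by library name, with the other WT libraries between 6.99 and 7.32 CPM. Kcnf1 was at 8.34 CPM in library 12, C201R by title, with the other C201R libraries between 6.34 and 7.05 CPM.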

How the results depend on the processing

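Members called by library name numbered 2 with edgeR, 5 with DESeq2, 1 with limma on log2(TPM + 1) and 1 on log2(TPM + 0.1), and 0 without the 4 muscle-rich libraries. Over all genes tested the same settings called 127, 335, 41, 42 and 12. Leaving out each library in turn gave 1 to 3 members and 54 to 221 genes. The median difference, -0.029, was 0.009 on both TPM scales, where that of all genes was 0.031 and 0.036 with pseudocounts of 1 and 0.1. It ran from -0.049 to -0.012 with a library left out. By title the count was 0 to 0 with a library left out. The median by title, -0.019, was 0.015 on both TPM scales, 0.012 without the muscle-rich libraries and -0.032 to 0.002 with a library left out. In the 8 libraries of agreeing labels edgeR called 0, DESeq2 3, voom with quality weights 4, edgeR without a filter 1 and without a sex term 1, and 0 to 0 with a library left out, while over all genes the first 5 called 29, 255, 267, 91 and 70. Their median, -0.024, was 0.004 and 0.005 on the TPM scales with pseudocounts of 1 and 0.1, 0.016 without the muscle-rich libraries and -0.05 to -0.001 with a library left out. The causes were not tested. Kcnk9 kept its call by library name in 21 of 22 settings (adjusted p 1.15e-07 to 0.0825) and Kcng4 in 16 of 22 (0.000209 to 0.274). Kcnab1 was also called lower with library number as a term (-0.23, adjusted p 0.00386), and Kcnmb4 without a sex term (adjusted p 0.0388) and without library 10 (0.0427). Members of few reads, such as Kcnq1 with a mean count of 18.17, are limited by depth. No paired analysis was possible because the labels used here give no pairing of C201R and WT libraries.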
